A study of Mus musculus with 6 samples.

Results

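p53 target genes and apoptosis regulators were followed in MIN6 cells after an siRNA against TDP-43. The set was a list of 36 mouse genes chosen by function. Each gene was read from the probe sets annotated to it alone, and the brightest of these by mean signal over the 6 arrays stood for the gene. Of the 36 genes, 34 had such a probe set, among 18193 genes with one on the array. Of these 34, 31 passed the filter on low signals, as did 12619 genes in all. Plk2, Pmaip1 and Fas lay under the filter, and their values are given below without it. For Trp53 and Bax no such probe set was given, and they are not analysed here.

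On 3 arrays MIN6 cells had received an siRNA that targets TDP-43, and on 3 arrays a control siRNA. In both groups 100 pmol of siRNA was delivered by electroporation with a 1200 V pulse of 20 ms. The time between electroporation and RNA extraction, and the siRNA sequences, are not given in the sources used here. The labels do not state that replicates were separate cultures, so p-values measure the spread between these samples, which may be technical.

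MIN6 is a mouse insulinoma line. As background from outside the labels, it came from mice that express the simian virus large T antigen in beta cells, a viral protein that binds and inactivates p53. Both groups share this. In cells with active p53, the protein binds DNA and raises transcription of genes for growth arrest, DNA repair and cell death, and of Mdm2, whose product marks p53 for degradation. In the mitochondrial pathway of apoptosis, BH3-only proteins set off the pore formers BAX and BAK1, anti-apoptotic BCL-2 proteins hold them back, and cytochrome c released through the pores assembles the apoptosome that activates caspases. Much of this control acts on proteins, which the arrays do not measure.

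Tardbp, the gene of the RNA-binding protein TDP-43, had signals of 2257, 2249 and 1836 in the TDP-43 siRNA arrays, against 3748, 3940 and 3699 in the control siRNA arrays. It fell by 0.85 on the log2 scale (SE 0.08, limma adjusted p = 0.00187). Median signals of the arrays lay between 72.3 and 79.97. The precision is limited by the small number of arrays, and with 3 arrays against 3 the smallest exact permutation p is 0.1. Control siRNA replicate 3 stood apart from the other control arrays in Ldha, a glycolytic enzyme gene. Ldha read 4367, 4353 and 4547 in the TDP-43 siRNA arrays, against 1829, 1884 and 4780 in the control siRNA arrays. Of 11 beta cell markers, 9 had a probe set and all 9 passed the filter, among them Ins2, Pdx1 and Slc2a2. Their summed signal ranged from 88572 to 95043 in the TDP-43 siRNA arrays and from 88702 to 91806 in the control siRNA arrays. All 14 fibroblast, endothelial and immune markers had a probe set, and 6 passed the filter. Summed over all 14, signals lay between 446 and 559 after TDP-43 siRNA and between 437 and 641 after control siRNA. Those past the filter were Col1a2, Fn1, Thy1, Kdr, Lyz2 and Cd68, with mean signals between 49.3 and 80.3 after TDP-43 siRNA and between 44.0 and 93.9 after control siRNA, and the other 8, among them Pecam1, Cdh5 and Ptprc, lay under it. Some markers of other pancreatic cells were bright in both groups. Gcg, the glucagon gene, had mean signals of 8165 after TDP-43 siRNA and 9264 after control siRNA. Ttr was at 21924 and 22767, and the duct keratin gene Krt7 at 5287 and 5648. The other markers of these cells past the filter had means of at most 393 in either group. No marker of alpha, delta, acinar, duct, fibroblast, endothelial or immune cells passed the limma test with all 6 arrays. In a bulk sample, fewer cells of a type and less RNA per cell cannot be told apart.

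For some of these genes the annotated start carries a short sequence that resembles the one p53 binds. The windows of 250 bases before to 50 after the RefSeq start sites (GRCm38.p6) were searched for the p53 half-site consensus of 10 bases. The consensus reads the same on both strands. It was present for 8 of the 32 listed genes that had a window (25%), against 9.55% of all 27025 genes with one. Among the tested genes with a window it was present for 6 of 28 (21.4%). Part of the list was chosen as p53 targets, so a higher share is a description of the list and not a test. Zmat3 had no window, so it was not searched. The sites of the 6 measured genes that had one are shown with 10 bases on either side, 5′ to 3′ on the strand of the gene, with the half-site in capitals.
Mdm2: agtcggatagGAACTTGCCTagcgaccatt
Ccng1: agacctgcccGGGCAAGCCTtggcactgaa
Sesn1: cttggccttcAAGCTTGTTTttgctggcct
Gadd45a: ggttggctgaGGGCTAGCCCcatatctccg
Aen: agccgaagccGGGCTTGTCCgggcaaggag
Ei24: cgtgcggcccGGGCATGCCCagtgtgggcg

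The printed stretch of Mdm2 is chr10:117710925-117710954 on the minus strand, and its half-site begins 186 bases before the start. The stretch of Ccng1 is chr11:40755452-40755481 on the minus strand, with the half-site 185 bases before the start. That of Sesn1 is chr10:41887256-41887285 on the plus strand, 173 bases before 1 of its start sites. That of Gadd45a is chr6:67037428-67037457 on the minus strand, 40 bases before the start. That of Aen is chr7:78895927-78895956 on the plus strand, 121 bases before 1 start site and at base 11 after another. That of Ei24 is chr9:36797325-36797354 on the minus strand, 10 bases before the start. A match of letters is a description and not a bound site. The 6 genes with a half-site did not share a direction: 3 had log2 differences above 0 and 3 below 0, as given below.

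The question of the comparison was which of these genes had different transcript levels after TDP-43 siRNA. Of the 31 genes tested, Zmat3 fell, no gene rose, and 30 did not pass the test. Across all 12619 genes, 0.745% passed in either direction (0.578% lower and 0.166% higher). The median log2 difference of the 31 genes was 0.04, against 0.02 for all genes tested, with 17 above 0 and 14 below. Their median absolute log2 difference was 0.15, against 0.10 for all genes. The 3 arrays of each group did not overlap for 4 of the 31 genes (12.9%), which were Zmat3, Gadd45a and Txnip on the lower side and Ei24 on the higher side. Over all genes, the groups did not overlap for 18.3% (8.32% lower and 9.98% higher). An unadjusted p below 0.05 was found for 3 genes (9.68%), Zmat3, Gadd45a and Ei24, against 12.6% of all genes. Neither share exceeded that of all genes.

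**Figure D1:**
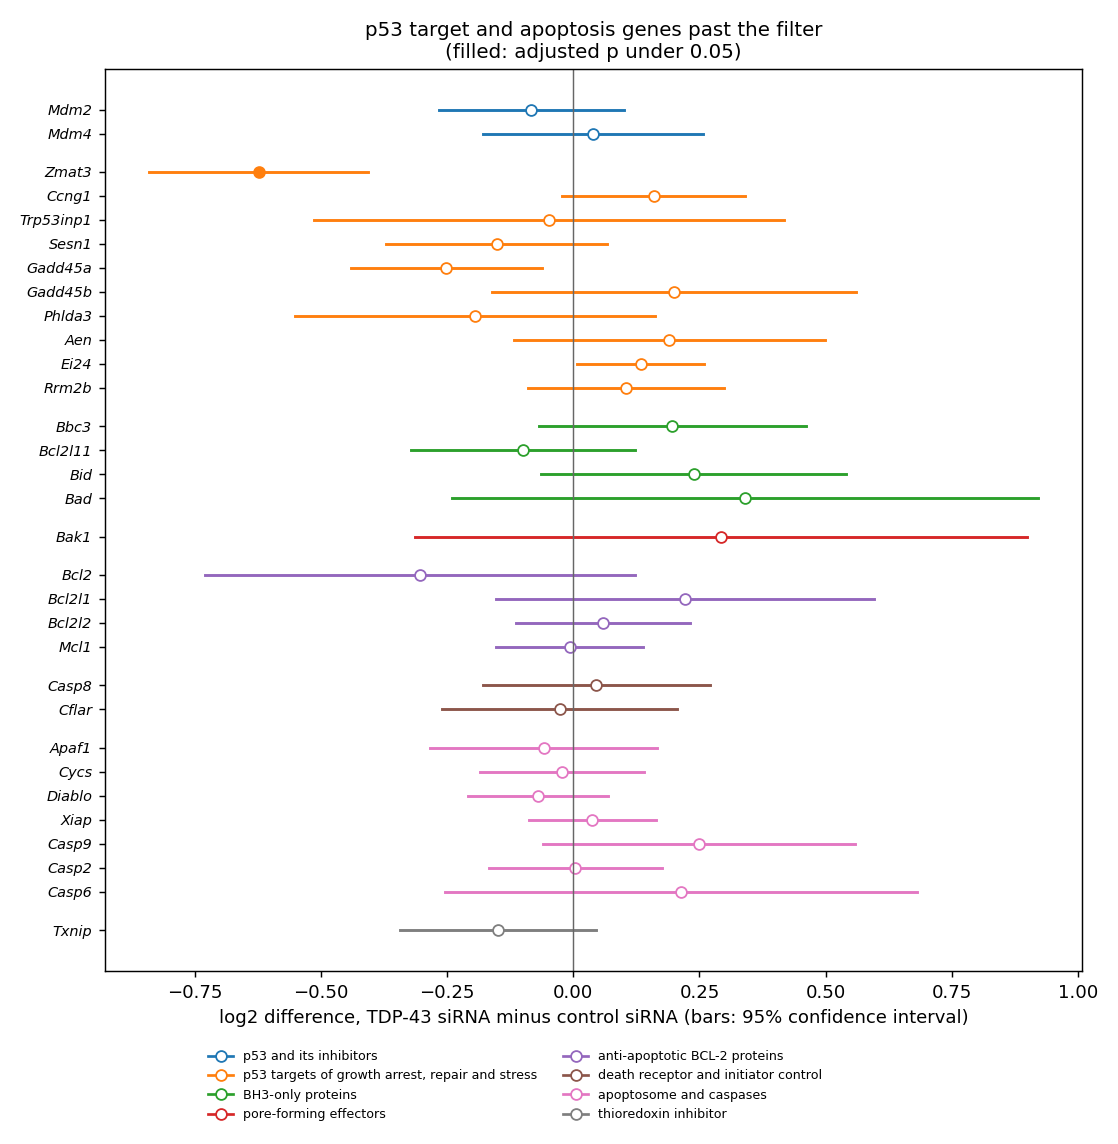
Log2 difference of TDP-43 siRNA minus control siRNA for the 31 genes past the filter, in order of role. Points are the estimates of the fit, bars the 95% confidence interval and the filled point the gene with an adjusted p under 0.05. Zmat3 at -0.62 is the single filled point, and the others lie between -0.30 and 0.34.

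Zmat3 encodes a zinc finger protein that binds AU-rich RNA and is a known p53 target. On its single annotated probe set, 1449353_at, the signal was 666, 696 and 665 in the TDP-43 siRNA arrays, against 1149, 908 and 1101 in the control siRNA arrays. The 3 TDP-43 siRNA arrays lay close together and below every control array. The means were 676 ± 17.5 after TDP-43 siRNA and 1053 ± 128 after control siRNA (SD, n = 3 each). The log2 difference was -0.62 (SE 0.10, limma adjusted p = 0.0196). The 95% confidence interval ran from -0.84 to -0.41, and the estimate corresponds to 0.649 of the control level on the log2(signal + 12) scale. Over all genes, between 31 and 253 passed in the 6 fits with 1 array left out, against 94 with all arrays. The Zmat3 call did not hold in each of these fits: the gene passed in 2 of 6, those without control siRNA replicate 2 or 3. Its limma adjusted p was 0.0912, 0.0718 and 0.0647 without TDP-43 siRNA replicate 1, 2 and 3, 0.103 without control siRNA replicate 1, and 0.115 with all arrays but no intensity trend in the variance model. In the 6 fits with an array left out, the log2 difference stayed between -0.73 and -0.56.

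Gadd45a, a stress sensor gene of growth arrest and DNA repair, did not pass with all 6 arrays. Its signals were 3777, 4173 and 4194 in the TDP-43 siRNA arrays, against 5233, 5060 and 4223 in the control siRNA arrays. The groups did not overlap, but control siRNA replicate 3 lay just above the TDP-43 siRNA arrays. The log2 difference was -0.25 (SE 0.08, limma adjusted p = 0.241, 95% confidence interval from -0.44 to -0.06). Without control siRNA replicate 3, Gadd45a passed with -0.35 (limma adjusted p = 0.0357), in a fit in which 0.888% of all genes passed as lower. The same array was the one that resembled the TDP-43 siRNA arrays in Ldha, and the part of this in the result was not tested. Gadd45b, a paralog with a similar role, gave 189, 190 and 192 after TDP-43 siRNA, against 176, 127 and 198 after control siRNA. Its log2 difference of 0.20 (limma adjusted p = 0.670) did not pass, and it was 0.03 without control siRNA replicate 2 and 0.32 without control siRNA replicate 3. The other 2 probe sets of Gadd45b past the filter were at -0.40 and 0.31, and the mean of its probe sets was at 0.04.

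Ei24, which encodes a membrane protein of the endoplasmic reticulum and is induced by p53, read 3877, 3755 and 3778 in the TDP-43 siRNA arrays, against 3395, 3380 and 3625 in the control siRNA arrays. All 3 TDP-43 siRNA arrays lay above the control arrays, with a log2 difference of 0.13 (SE 0.06, limma adjusted p = 0.366, 95% confidence interval from 0.0076 to 0.26). Ccng1, the gene of cyclin G1, read 2365, 2149 and 2537 after TDP-43 siRNA, against 1952, 2101 and 2252 after control siRNA. The groups overlapped in 1 array of each, and the log2 difference of 0.16 (95% confidence interval from -0.02 to 0.34) did not pass (limma adjusted p = 0.458). The other 2 probe sets of Ccng1 were at 0.28 and 0.18.

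Trp53inp1, whose product acts in cell stress and autophagy, showed one array apart. Its signals were 1545, 1197 and 1418 in the TDP-43 siRNA arrays, against 1120, 1208 and 2143 in the control siRNA arrays. The high value belonged to control siRNA replicate 3. The log2 difference was -0.05 with all arrays (limma adjusted p = 0.952) and 0.24 without control siRNA replicate 3 (limma adjusted p = 0.300), neither of which passed. Without control siRNA replicate 1 it was at -0.22. The second probe set, 1416927_at, read 57.9, 54.0 and 43.2 after TDP-43 siRNA, against 54.2, 95.4 and 80.98 after control siRNA, a log2 difference of -0.46 (limma adjusted p = 0.506 over 23433 probe sets). There control siRNA replicate 2 was highest, and the mean of both probe sets was at -0.25.

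The remaining p53 targets of this kind did not pass. Sesn1, which restrains mTORC1 signalling, read 1126, 992 and 1018 after TDP-43 siRNA, against 1143, 1321 and 1037 after control siRNA, a log2 difference of -0.15. Phlda3, whose product competes with AKT for membrane lipids, was at -0.19. Rrm2b, a ribonucleotide reductase subunit that supplies nucleotides for repair, was at 0.10, and Aen, an apoptosis-enhancing nuclease, was at 0.19. The limma adjusted p of these 4 genes lay between 0.572 and 0.683, and their groups overlapped.

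Neither inhibitor of p53 passed. Mdm2, the ubiquitin ligase that p53 itself induces, had signals of 1178, 1318 and 1320 in the TDP-43 siRNA arrays, against 1414, 1238 and 1393 in the control siRNA arrays. The groups overlapped, with a log2 difference of -0.08 (SE 0.08, limma adjusted p = 0.733, 95% confidence interval from -0.27 to 0.10). Its second probe set was at 0.02. Mdm4, which blocks the activation domain of p53, was at 0.04 with an interval from -0.18 to 0.26.

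**Figure D2:**
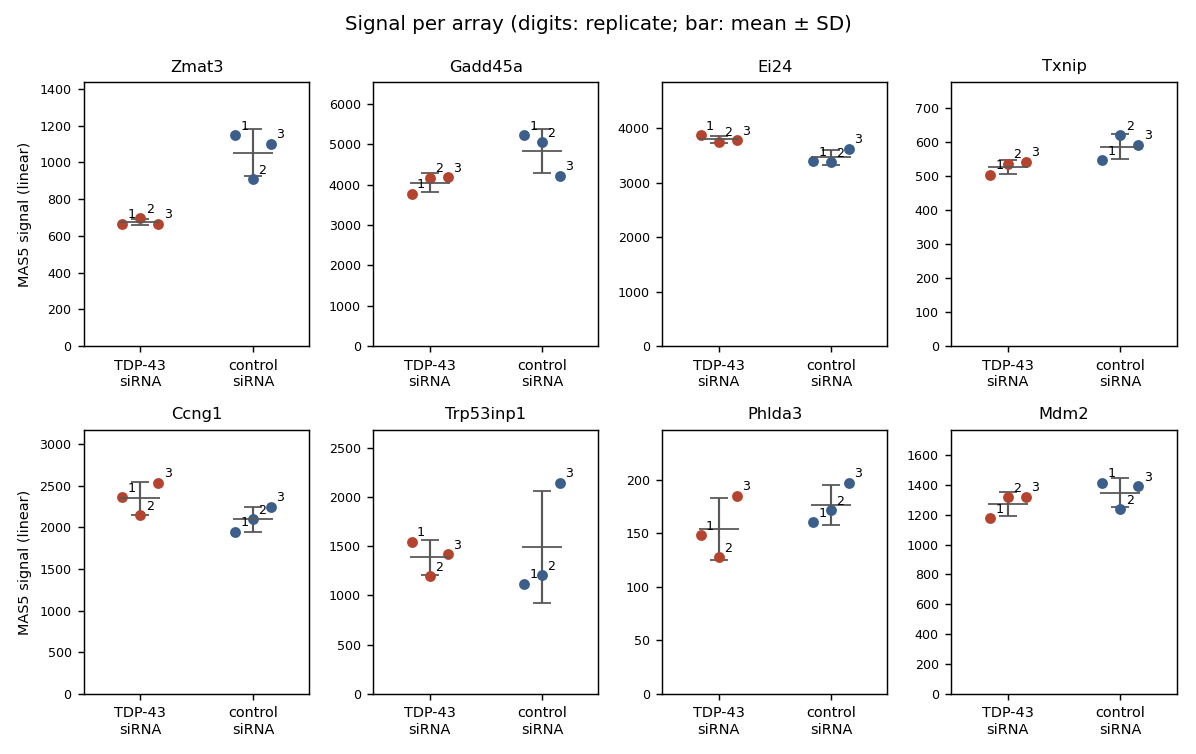
MAS5 signal on a linear axis for 8 genes, with the 3 TDP-43 siRNA arrays at left and the 3 control siRNA arrays at right in each panel. Digits give the replicate, and bars the mean ± SD. The groups do not overlap for Zmat3, Gadd45a, Ei24 and Txnip, and control siRNA replicate 3 is the high point of Trp53inp1 at 2143.

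Txnip, the thioredoxin inhibitor gene that glucose induces in beta cells, read 505, 537 and 543 in the TDP-43 siRNA arrays, against 547, 622 and 594 in the control siRNA arrays. The groups did not overlap, though TDP-43 siRNA replicate 3 lay just below control siRNA replicate 1. The fit gave a log2 difference of -0.15 (SE 0.09, limma adjusted p = 0.515, 95% confidence interval from -0.34 to 0.04). On its second probe set, 1415997_at, signals were 201, 253 and 421 after TDP-43 siRNA, against 460, 317 and 467 after control siRNA. Here the groups overlapped, and the log2 difference was -0.54 (SE 0.24, limma adjusted p = 0.441 over 23433 probe sets).

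Of the 4 BH3-only genes tested, 0 passed. Bbc3, which encodes PUMA and is a p53 target, had signals of 285, 269 and 297 in the TDP-43 siRNA arrays, against 220, 279 and 243 in the control siRNA arrays. The groups overlapped through control siRNA replicate 2, and the log2 difference was 0.20 (SE 0.12, limma adjusted p = 0.535, 95% confidence interval from -0.07 to 0.46). Bid, which links death receptors to mitochondria, read 224, 230 and 255 after TDP-43 siRNA, against 179, 184 and 237 after control siRNA, a log2 difference of 0.24 (limma adjusted p = 0.508). Bcl2l11, the gene of BIM, was at -0.10, with its 5 probe sets past the filter between -0.10 and 0.11.

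Bad, whose product binds BCL-2 and BCL-XL, rested on one array. Its signals were 1257, 1097 and 1091 in the TDP-43 siRNA arrays, against 522, 1212 and 1161 in the control siRNA arrays. The low value belonged to control siRNA replicate 1. The fit gave a log2 difference of 0.34 with all arrays (limma adjusted p = 0.650) and -0.05 without control siRNA replicate 1 (limma adjusted p = 0.932). The second probe set, 1416583_at, was at -0.10, and on it control siRNA replicate 1 gave 983, its highest signal. Bak1, a pore former, had dim signals of 104, 59.1 and 92.5 after TDP-43 siRNA, against 58.9, 95.7 and 49.6 after control siRNA. Its log2 difference of 0.29 had a wide 95% confidence interval, from -0.31 to 0.90, which holds 0 and reaches further above it than below. Its second probe set was at -0.05.

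Among the anti-apoptotic genes 0 of 4 passed. Bcl2 had signals of 320, 390 and 333 in the TDP-43 siRNA arrays, against 541, 489 and 301 in the control siRNA arrays. Control siRNA replicate 3 gave the lowest value of all 6, so the groups overlapped. The fit gave -0.30 (SE 0.19, limma adjusted p = 0.557, 95% confidence interval from -0.73 to 0.12). With 1 array left out it did not pass in any of 6 fits and lay between -0.14, without control siRNA replicate 1, and -0.55, without control siRNA replicate 3. Its other 2 probe sets past the filter were at -0.10 and -0.04. Bcl2l1, the gene of BCL-XL, read 680, 547 and 579 after TDP-43 siRNA, against 385, 648 and 538 after control siRNA. The low value again belonged to control siRNA replicate 1, and the log2 difference was 0.22 (SE 0.17, limma adjusted p = 0.642, 95% confidence interval from -0.15 to 0.60). Without control siRNA replicate 1 it was at 0.02, and without control siRNA replicate 2 at 0.39. All 3 of its probe sets past the filter lay between 0.21 and 0.24 with all arrays. On 1 of them, 1426191_a_at, control siRNA replicate 1 instead gave the highest of the control signals, 120.

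Mcl1, which encodes a short-lived guard of mitochondria, was measured closely. Its signals were 2764, 3033 and 2761 in the TDP-43 siRNA arrays, against 2949, 2913 and 2737 in the control siRNA arrays. The log2 difference was -0.0076 (SE 0.06), with a 95% confidence interval from -0.15 to 0.14, and its 6 probe sets lay between -0.04 and 0.02. Bcl2l2, the gene of BCL-W, was at 0.06, with an interval from -0.11 to 0.23.

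**Figure D3:**
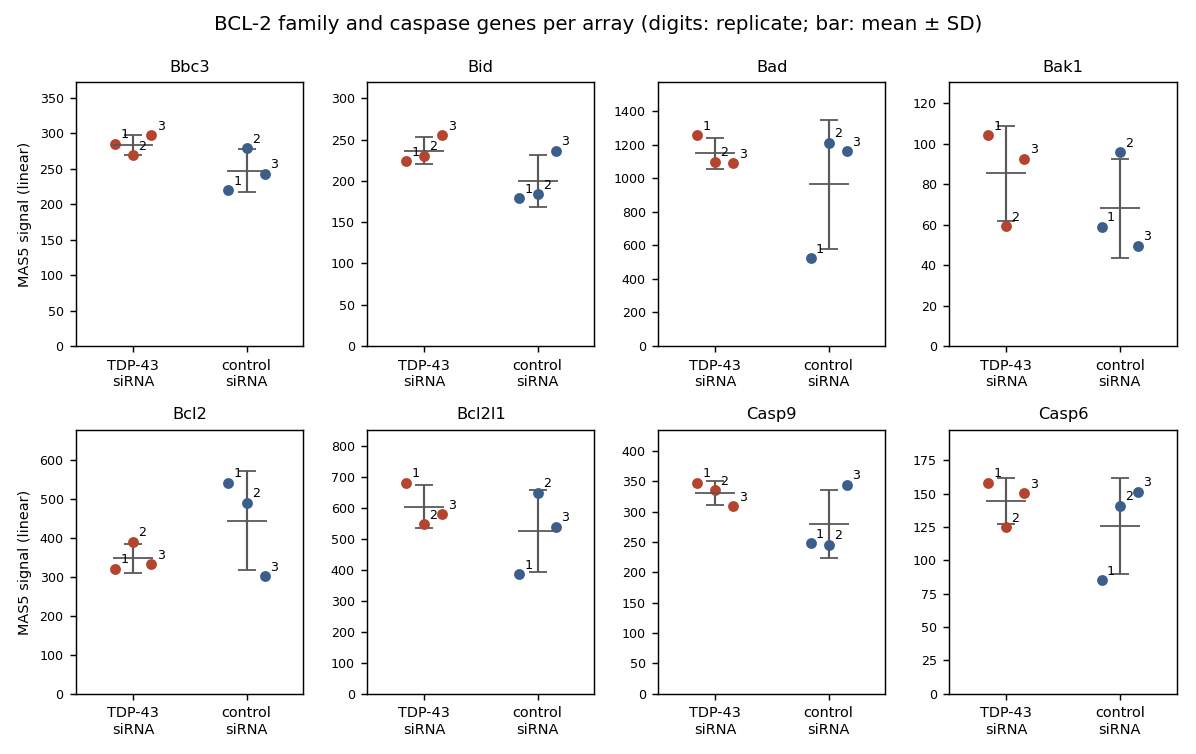
MAS5 signal on a linear axis for 8 BCL-2 family and caspase genes, TDP-43 siRNA at left and control siRNA at right in each panel. Digits give the replicate, and bars the mean ± SD. The groups overlap in every panel, and control siRNA replicate 1 is the low point of Bad at 522, of Bcl2l1 at 385 and of Casp6 at 85.1.

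In the death receptor branch Casp8, the initiator caspase, and Cflar, its catalytically inactive relative FLIP, did not pass. Casp8 was at 0.05 (95% confidence interval from -0.18 to 0.27). Cflar was at -0.03 on its brightest probe set, 1424996_at (interval from -0.26 to 0.21). Another probe set of Cflar, 1449317_at, gave 74.8, 88.0 and 53.2 in the TDP-43 siRNA arrays, against 162, 164 and 127 in the control siRNA arrays. On it the groups did not overlap, and the log2 difference was -0.97 (SE 0.20, limma adjusted p = 0.0753 over 23433 probe sets). The difference between the 2 probe sets in their log2 differences was -0.94 (95% confidence interval from -1.46 to -0.42) and did not pass (limma adjusted p = 0.365 over 10814 pairs of probe sets). The other 2 probe sets of Cflar past the filter were at -0.12 and 0.41. This gene was picked out for its probe sets after their values were seen.

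**Figure D4:**
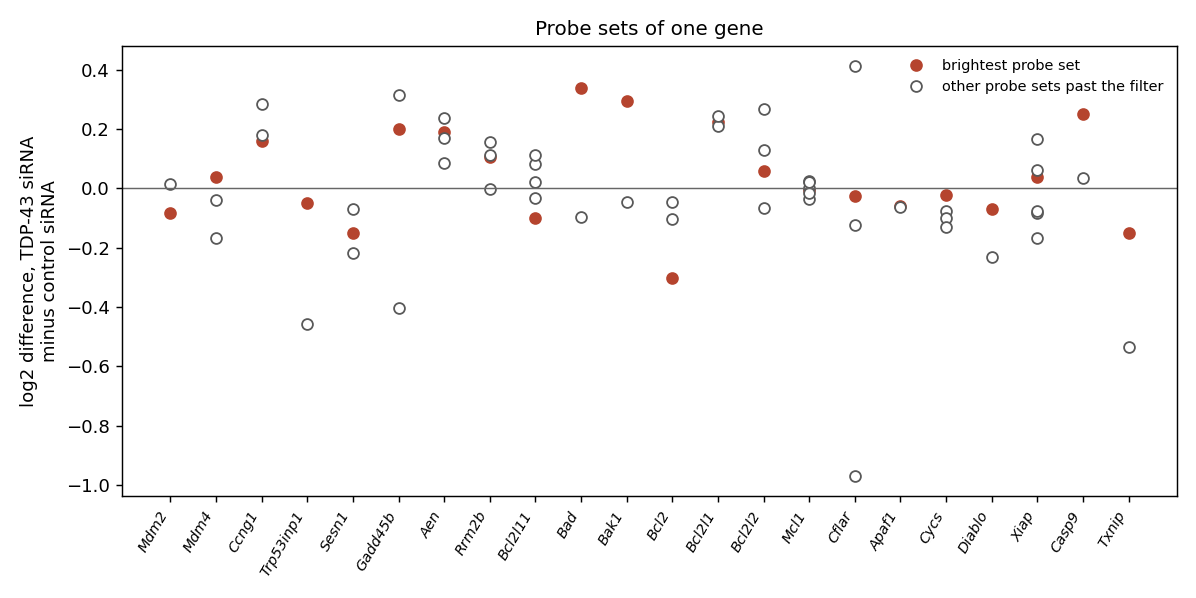
Log2 difference of TDP-43 siRNA minus control siRNA for every probe set past the filter of the 22 genes with more than 1. Filled points are the brightest probe sets and open points the others. The open point of Cflar at -0.97 lies farthest from 0, and its brightest probe set is at -0.03.

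Across the 22 genes with more than 1 probe set past the filter, all probe sets lay above 0 for 4, all below 0 for 7, and on both sides of 0 for 11. Of 49 pairs of probe sets, each against the brightest of the same gene, 0 differed past the threshold in limma, and 1 did at an unadjusted p below 0.05, the Cflar pair. Over all 10814 pairs, 0% passed and 7.19% had an unadjusted p below 0.05. Zmat3, Gadd45a and Ei24 each had 1 probe set, so no second reading of these 3 was to be had.

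Of the 7 genes of the apoptosome and caspases 0 passed. Apaf1, the scaffold of the apoptosome, was at -0.06 (95% confidence interval from -0.28 to 0.17). Cycs, the gene of cytochrome c, was at -0.02, and its 4 probe sets lay between -0.13 and -0.02. Diablo, whose product relieves caspases of their inhibitors, was at -0.07, and Xiap, a caspase inhibitor, was at 0.04 (interval from -0.09 to 0.16). Casp2 was at 0.0041 (interval from -0.17 to 0.18).

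Casp9, the initiator caspase of the apoptosome, read 347, 335 and 309 in the TDP-43 siRNA arrays, against 248, 245 and 344 in the control siRNA arrays. Control siRNA replicate 3 lay among the TDP-43 siRNA arrays, and the log2 difference of 0.25 (SE 0.14, 95% confidence interval from -0.06 to 0.56) did not pass (limma adjusted p = 0.502). Leaving out 1 array gave values between 0.17 and 0.40, and its second probe set past the filter was at 0.03. Casp6, an executioner caspase, read 158, 125 and 151 after TDP-43 siRNA, against 85.1, 141 and 151 after control siRNA. Its log2 difference was 0.21 with all arrays and -0.02 without control siRNA replicate 1.

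The 3 genes under the filter had signals too low for a firm reading. Plk2, a polo-like kinase gene induced by p53, read 11.8, 11.1 and 6.24 in the TDP-43 siRNA arrays, against 27.6, 39.2 and 20.5 in the control siRNA arrays. The groups did not overlap, and in a fit without the filter the log2 difference was -0.91 (SE 0.25, limma adjusted p = 0.251). In that fit 0 of the 34 genes passed, against 0.280% of all 18193 genes. Zmat3 then had an adjusted p of 0.0533 in limma. Fas, the death receptor, read 15.95, 2.14 and 6.13 after TDP-43 siRNA, against 4.33, 2.64 and 2.95 after control siRNA. Pmaip1, the gene of NOXA, lay between 1 and 1.51 after TDP-43 siRNA and between 1.06 and 1.21 after control siRNA, at the bottom of the scale of the array. For these genes the arrays cannot tell a low level from none.

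The width of the intervals sets what could be seen. For 20 of the 31 genes (64.5%), the 95% confidence interval lay within 0.5 of 0 on the log2 scale, against 70.3% of all genes. Among the 20 were Mdm2, Mdm4, Mcl1, Xiap, Apaf1, Cycs and Casp8. Intervals reached beyond 0.5 for Bad, Bak1, Bcl2, Bcl2l1, Casp6, Casp9, Trp53inp1 and others.

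**Figure D5:**
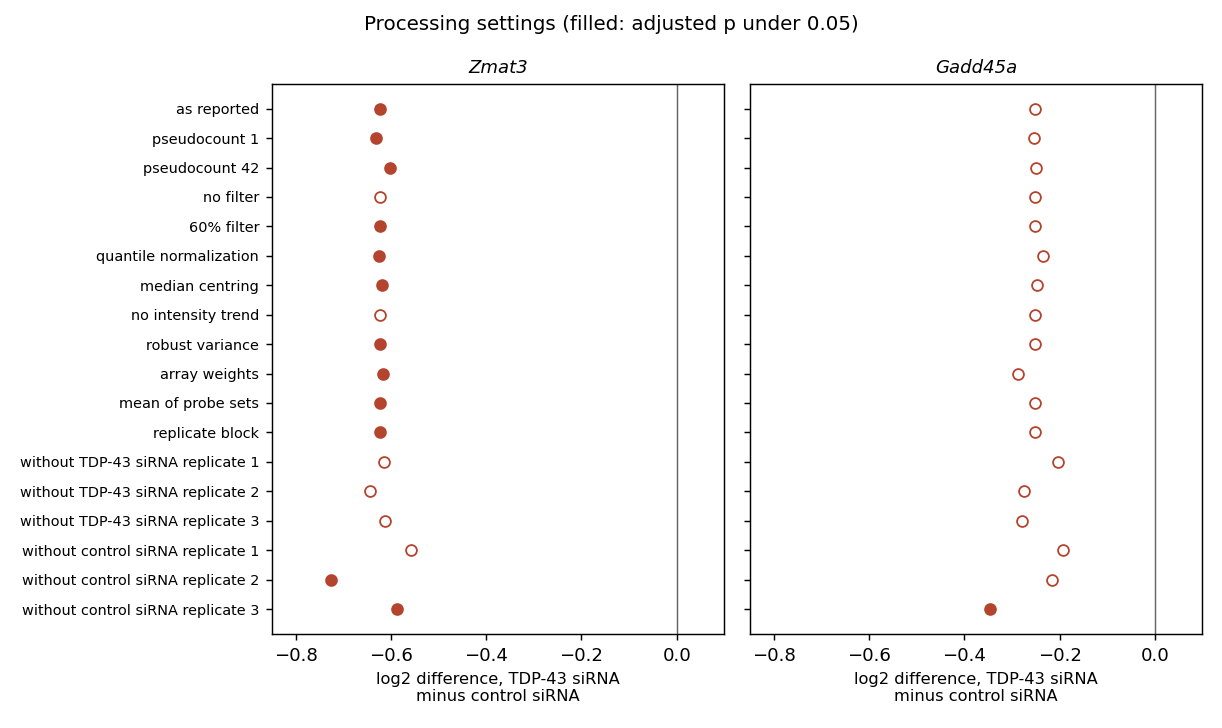
Log2 difference of TDP-43 siRNA minus control siRNA for Zmat3 (left) and Gadd45a (right) as reported and under 17 other settings. Filled points have an adjusted p under 0.05. Zmat3 stayed between -0.73 and -0.56 and was filled under 11 of the 17 other settings, and Gadd45a was filled only without control siRNA replicate 3.

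Genes of the same pathways outside the list were read from 3 further lists chosen by function. Of 22 other p53 targets tested, 0 passed in limma, with a median log2 difference of 0.06. At an unadjusted p below 0.05, 2 were higher and 1 lower. Dglucy, a D-glutamate cyclase gene, was at -0.94 on a dim probe set (limma adjusted p = 0.154), with 28.9, 23.2 and 27.8 after TDP-43 siRNA against 52.3, 58.1 and 77.0 after control siRNA. Steap3, a metalloreductase gene, was at 1.15 and also dim (limma adjusted p = 0.249). Ddit4, an mTORC1 inhibitor gene, read 2508, 2510 and 2491 after TDP-43 siRNA, against 1442, 1363 and 2637 after control siRNA. Control siRNA replicate 3 again lay beside the TDP-43 siRNA arrays, as for Ldha, and the log2 difference was 0.53 with all arrays (limma adjusted p = 0.309). Tigar, a fructose bisphosphatase gene, was at 0.21.

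Of 19 regulators of p53, 0 passed in limma, and 1 had an unadjusted p below 0.05. Hipk2, a kinase of p53, read 2253, 2450 and 2203 after TDP-43 siRNA, against 2006, 1714 and 2201 after control siRNA, a log2 difference of 0.23 (limma adjusted p = 0.353). Sirt1, a deacetylase of p53, was at -0.18, Cop1, a ubiquitin ligase of p53, at 0.17, and Usp7, a deubiquitinase of p53 and MDM2, at 0.15. The list median was 0.02.

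Of 27 other apoptosis genes 0 passed in limma, with a median of 0.04, and 4 were higher and 0 lower at an unadjusted p below 0.05. These were Vdac1, an outer membrane channel of mitochondria, at 0.24, Endog, a mitochondrial nuclease, at 0.28, Bmf, a BH3-only gene, at 0.47, and Bnip3, a mitophagy receptor gene induced by low oxygen, at 0.44. Bnip3 read 10102, 10698 and 11085 after TDP-43 siRNA, against 6297, 6416 and 11757 after control siRNA, with control siRNA replicate 3 again beside the TDP-43 siRNA arrays. Without control siRNA replicate 3, Ddit4, Bnip3 and Vdac1 passed as higher, in the fit in which 1.12% of all genes were higher. With all 6 arrays, the share of all genes at an unadjusted p below 0.05 was 6.75% higher and 5.87% lower.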

How the data were processed

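Affymetrix mouse arrays (6) were labelled with a 3′ in vitro transcription kit. The authors deposited MAS5 signal intensities on a linear scale, per the submitters' processing notes. Version and settings are not given in the sources used here, and detection calls were not used. The 2% trimmed mean was 500.003 on every array.

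Of 45101 probe sets, 34945 named 1 gene in the platform annotation. Of these, 34754 were matched by Entrez number to a RefSeq gene table (GRCm38.p6) and took its symbol, whether or not it differed. The value 12 was added to each signal before log2, which understates changes of dim genes. Probe sets whose mean signal was in the lowest 40% were dropped (27022 remained), and the brightest single-gene probe set stood for each of 12619 genes. The comparison used limma 3.58.1 (R 4.3.3) (intensity trend, except for pairs of probe sets; two-sided; Benjamini-Hochberg over all genes; threshold 0.05). Figures used matplotlib 3.10.9.

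Members, lists and rules were chosen with earlier results of these data known. All members are described. Values in every array are given for members past the threshold, with an unadjusted p below 0.05 or with groups apart, and for Mdm2, Bcl2, Bcl2l1, Bbc3 and Txnip. Others were added after their values were seen. From each further list up to 4 genes with the smallest p are named. On simulated data for TDP-43 siRNA against control siRNA over 12619 genes, 46% of 100 genes changed by 0.5 and 80% of 100 changed by 1 were recovered, and 8 unchanged genes were called. The simulated noise was independent between genes, without deviations of an array shared by many genes, so these rates may not hold for the real arrays. The alternatives were other pseudocounts, filters, normalizations, variance models, array weights, probe set means, thresholds, the replicate block and each array left out. As a check of RNA quality, the log2 ratio of 3′ to 5′ control probe sets was compared between groups and differed by 0.02 for Gapdh and -0.03 for b-actin (two-sided exact permutation p of 0.4 and 0.2).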

Additional observations from a re-analysis of the deposited data

How the results depend on the processing

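Over all genes, 94 passed as reported. The count was 51 with no filter, 12 with no intensity trend, 161 with array weights, 61 with the mean of probe sets, 208 at an adjusted p of 0.1, and between 31 and 253 with 1 array left out, the highest without control siRNA replicate 3. Among the members 1 passed as reported, Zmat3, 0 with no filter or no intensity trend, and between 0 and 2 with 1 array left out. Of the further lists, other p53 targets gave between 0 and 1 and other apoptosis genes between 0 and 2 with 1 array left out. Zmat3, at -0.62 in both, had an adjusted p of 0.0533 with no filter and 0.115 with no intensity trend, and lay between -0.73 and -0.56 with 1 array left out. Tardbp, at -0.85, had an adjusted p of 0.0608 with no intensity trend and passed in all 6 fits with 1 array left out. The cause of these changes was not tested.

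Of the 30 other members tested, 18 kept their sign in every setting that gave a value and 1, Gadd45a, passed in 1, without control siRNA replicate 3. For 12 members, none of which passed in any setting, the sign turned. With the mean of probe sets Mdm4 was at -0.057, Bcl2l11 at 0.016 and Xiap at -0.010. With array weights Trp53inp1 was at 0.030. With 1 array left out, Mdm4 lay between -0.029 and 0.12, Trp53inp1 between -0.22 and 0.24, Bad between -0.049 and 0.55, Mcl1 between -0.052 and 0.015, Casp8 between -0.035 and 0.10, Cflar between -0.087 and 0.072, Apaf1 between -0.13 and 0.015, Cycs between -0.071 and 0.061, Casp2 between -0.049 and 0.060, and Casp6 between -0.022 and 0.35. Of pairs of member probe sets, 0 passed under every setting tried, in limma.

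Same-numbered arrays did not deviate together in a regular way, with correlations of -0.12, -0.14 and 0.24 for numbers 1, 2 and 3. Between different numbers, TDP-43 siRNA 1 with control siRNA 2 was at 0.30 and TDP-43 siRNA 2 with control siRNA 1 at 0.23. The other correlations between different numbers lay between -0.18 and -0.08. The numbers were therefore not taken as pairs, and a pairing under other numbers was not tested. With the replicate block 123 genes passed over the whole table and Zmat3 was the member called (limma adjusted p = 0.0252).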
